A study of Homo sapiens with 12 samples.

Results

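The autophagy and lysosome genes were 46 genes, chosen by name because they encode parts of the autophagy machinery or of the lysosome, and looked up in the deposited table of normalized counts. All 46 were among its 36601 genes, and 45 were among the 15376 whose mean over the libraries reached 10 normalized counts and which were tested. The remaining member, CTSZ (cathepsin Z), had 2.03 to 10.5 normalized counts per library and was not tested. The cells were KP4, a single human line that the labels call a pancreatic ductal cell carcinoma of genotype WT, kept in DMEM with 10% FBS in every group. For 24 h they received DMSO (vehicle), 10 mM metformin (Met), an inhibitor of complex I of the respiratory chain, 5 nM FK866 (FK), an inhibitor of the NAD salvage enzyme NAMPT, or metformin and FK866 at these concentrations (Met+FK). RNA depleted of ribosomal RNA was sequenced in 12 libraries, 3 per treatment. The labels number the replicates without stating that they were separate cultures, so all p-values measure only the spread between these libraries. The data ask how transcripts of this machinery respond to each drug and whether FK866 adds to metformin.

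Autophagy encloses cytoplasm in a double membrane and delivers it to the lysosome. ULK kinases start the process, a lipid kinase complex with BECN1 and either ATG14 or UVRAG marks the membrane, WIPI proteins read that mark, and a conjugation machinery attaches ATG8 proteins (LC3 and GABARAP), which cargo receptors such as SQSTM1 bind. Lysosomes hold acid hydrolases, a V-ATPase proton pump and membrane proteins, and the MiT/TFE transcription factors TFEB, TFE3 and MITF bind an E-box, CACGTG, in many of their promoters. Transcript levels alone do not measure the flux through autophagy or the activity of lysosomes.

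RefSeq promoters (GRCh38.p14) were matched for 37 of the 46 members, as 49 windows of 250 bases before to 50 after a transcription start. The letters CACGTG, whose reverse complement is the same, were in 7 of the 49 (14.3%), against 7.26% of all 35116 promoters. The longer form TCACGTG, which contains these letters and was searched on both strands, was in 7 of the 49 (14.3%) and in 3.71% of all promoters. The core of the ATF4 element, TGATGNAA on either strand, was in 0 of the 49 and in 3.62% of all promoters. The 7 members with the E-box were ATG3, ATG14, ATP6V0D1, CTSA, CTSD, LAMP1 and MCOLN1. These matches are descriptions of letters in a window and not sites of binding. The first 280 bases of 5 windows are shown 5′ to 3′ with capitals marking TCACGTG on either strand, because 4 of them hold the E-box and fall into all 3 classes of response to metformin given below. LAMP1 (chr13:113296989-113297268, + strand) and MCOLN1 (chr19:7522374-7522653, + strand) encode membrane proteins of the lysosome, CTSD (chr11:1763898-1764177, - strand) a protease, and ATG14 (chr14:55411801-55412080, - strand) the autophagy subunit of the lipid kinase complex. MAP1LC3B (chr16:87392086-87392365, + strand), the most induced ATG8 gene, has no match in its window.
LAMP1: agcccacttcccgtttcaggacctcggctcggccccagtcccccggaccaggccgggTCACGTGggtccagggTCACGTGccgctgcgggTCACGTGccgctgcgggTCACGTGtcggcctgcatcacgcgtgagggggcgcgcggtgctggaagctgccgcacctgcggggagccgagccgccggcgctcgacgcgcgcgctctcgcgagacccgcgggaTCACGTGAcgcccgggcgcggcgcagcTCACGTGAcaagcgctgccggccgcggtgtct
MCOLN1: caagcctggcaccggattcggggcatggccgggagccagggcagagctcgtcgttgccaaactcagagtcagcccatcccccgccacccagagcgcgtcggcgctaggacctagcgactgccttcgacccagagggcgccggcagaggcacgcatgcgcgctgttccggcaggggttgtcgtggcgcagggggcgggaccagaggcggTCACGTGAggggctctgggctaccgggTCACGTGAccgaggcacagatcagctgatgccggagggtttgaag
CTSD: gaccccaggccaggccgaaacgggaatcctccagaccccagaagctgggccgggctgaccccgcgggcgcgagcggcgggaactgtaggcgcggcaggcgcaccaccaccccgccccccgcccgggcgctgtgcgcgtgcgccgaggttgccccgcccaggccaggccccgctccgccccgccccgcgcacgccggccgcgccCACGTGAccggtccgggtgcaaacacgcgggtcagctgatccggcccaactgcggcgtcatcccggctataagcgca
ATG14: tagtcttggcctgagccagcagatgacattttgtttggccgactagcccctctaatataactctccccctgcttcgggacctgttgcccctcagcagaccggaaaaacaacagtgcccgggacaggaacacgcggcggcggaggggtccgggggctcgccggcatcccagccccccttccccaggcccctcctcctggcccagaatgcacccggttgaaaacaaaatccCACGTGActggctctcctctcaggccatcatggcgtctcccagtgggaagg
MAP1LC3B: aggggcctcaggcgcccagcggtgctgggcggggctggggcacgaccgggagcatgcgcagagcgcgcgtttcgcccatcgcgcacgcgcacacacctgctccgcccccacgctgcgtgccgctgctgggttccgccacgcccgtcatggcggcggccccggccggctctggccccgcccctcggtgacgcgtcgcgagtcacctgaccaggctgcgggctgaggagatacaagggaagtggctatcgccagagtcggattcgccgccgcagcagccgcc

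Each library held 30667735 to 41052203 counted read pairs. Of the ductal markers, KP4 libraries carried KRT18 (9398 to 18721 normalized counts), SOX9 (3405 to 5140), KRT8 (2217 to 3222) and KRT7 (209 to 314). EPCAM (3.78 to 12.5), CDH1 (24.2 to 86.5) and KRT19 (14.6 to 75.0) were low, and CFTR was at 0 in every library. Of the mesenchymal markers, VIM was at 93661 to 121917, CDH2 at 2818 to 3499, ZEB1 at 544 to 1272 and FN1 at 298 to 455. The acinar and endocrine markers lay at 0 to 1.65, and the leukocyte and endothelial ones at 101 to 304 (PTPRC), 721 to 1010 (CD68), 3.14 to 12.3 (PECAM1) and 12.5 to 43.3 (VWF). Values also depended on GC content to an extent that differed between libraries. Per 10 percentage points of GC, the log2 values of all genes shifted by 0.14 ± 0.084 (SD, n = 3) in DMSO, -0.048 ± 0.11 in Met, -0.089 ± 0.14 in FK and -0.0027 ± 0.058 in Met+FK, each relative to the mean of the 12 libraries. FK replicate 2 stood furthest out at -0.25.

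In DMSO the members spanned a wide range. Per kilobase of transcript, the mean normalized count in DMSO was highest for the cargo receptor SQSTM1 (21643) and the sphingolipid activator precursor PSAP (16711), followed by GABARAP (4442) and CTSD (3489). Among the tested members it was lowest for MITF (51.2), ATG14 (158.0) and TFEB (174.1). As counts, SQSTM1 and PSAP made up 25.8% and 19.3% of all counts in member genes in DMSO.

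With metformin alone, 21 of the 45 tested members rose and 7 fell against DMSO at an adjusted p-value under 0.05, and 17 did not pass the test. That is 46.7% and 15.6% of the members, beside 24.9% and 25.9% of all genes tested. The median log2 fold change was 0.15 over the members and 0.012 over all genes. All 4 cargo receptors rose, and the members that passed the DEG thresholds (adjusted p under 0.05 and a fold change over 1.5) were MAP1LC3B, WIPI1, TAX1BP1, OPTN, SQSTM1, ULK2, LAMP2 and UVRAG among those that rose, and GLA and TFEB among those that fell. These 8 and 2 members are 17.8% and 4.44%, beside 12.8% and 10.2% of all genes, and under TMM scaling, equal library totals or removal of the GC and length trend 0 of those that fell passed these thresholds. With equal library totals, 24 members rose and 4 fell, beside 5241 and 2926 of all genes, against 3834 and 3989 as deposited. The median GC content of the transcript was 47.6% (36.0 to 64.2%) for the 21 members that rose with metformin alone. For the 7 that fell it was 57.5% (43.8 to 64.7%). With the GC and length trend removed 24 rose and 7 fell (53.3% and 15.6%), beside 26.8% and 29.7% of all genes. With FK866 present in both groups (Met+FK against FK), 23 members rose (51.1%) and 3 fell (6.67%), beside 20.5% and 21.7% of all genes, and the median was 0.30 over the members and -0.011 over all genes. Of these, 8 that rose and 0 that fell passed the DEG thresholds, beside 9.27% and 9.29% of all genes. The 2 comparisons share no library but are not fully independent. They share 1 estimate of the spread, and same-numbered libraries of DMSO and FK, and of Met and Met+FK, deviated together. As ranges, 22 and 9 members had Met libraries all above or all below DMSO (27.5% and 29.4% of all genes), and 24 and 5 had Met+FK libraries all above or all below FK (24.9% and 26.0% of all genes). In both comparisons, 17 members rose and 2 fell (ATG2A and GLA), none passed the test in opposite directions, and 35 of 45 had the same sign. The same counts were not taken over all genes, so whether this agreement is particular to the members was not tested.

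**Figure D1:**
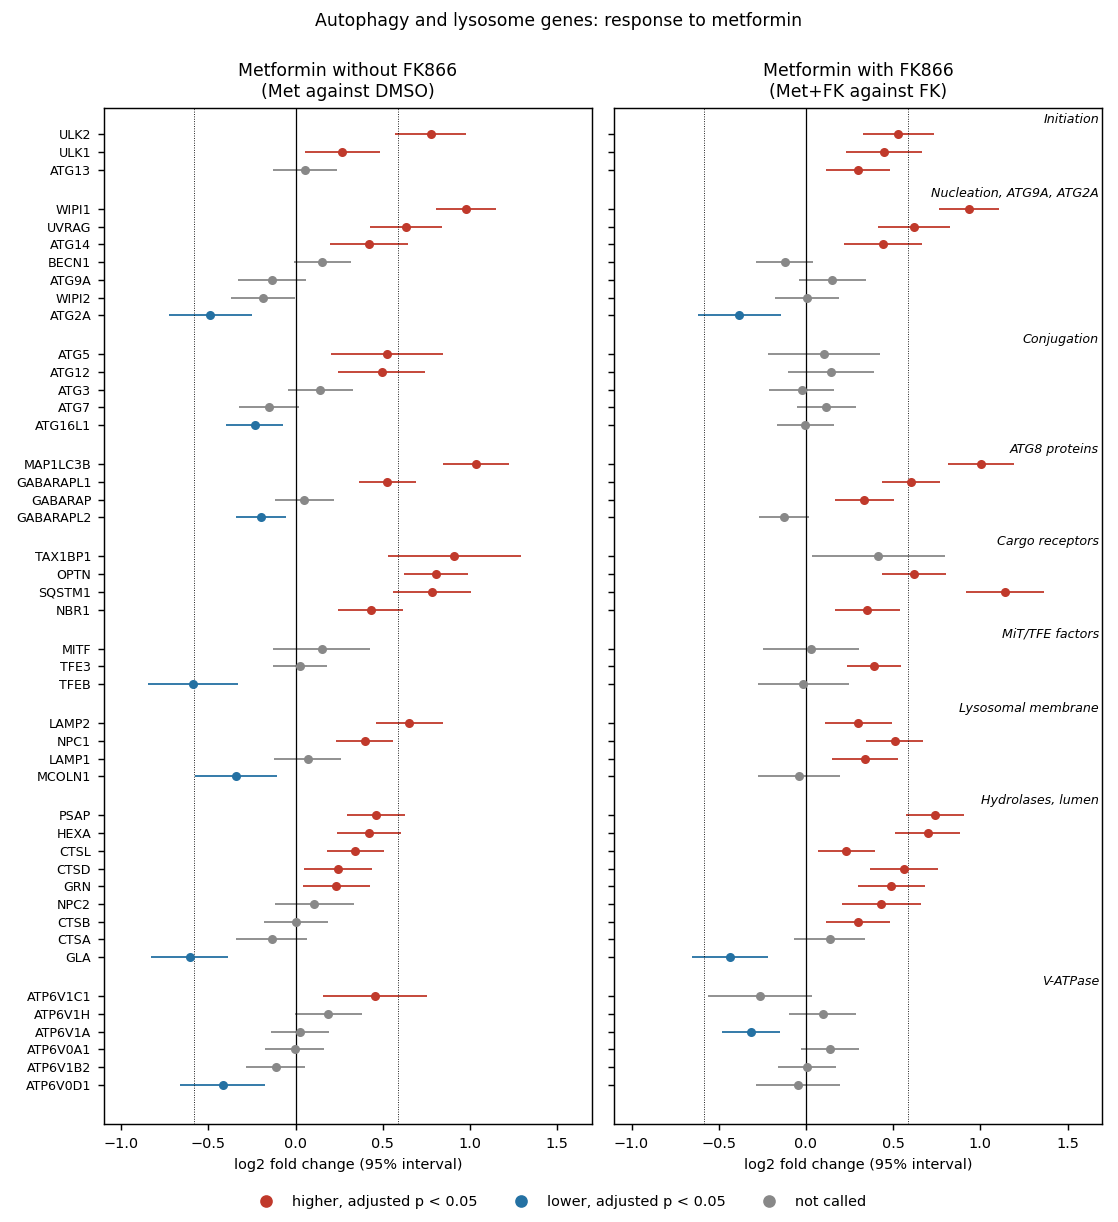
Log2 fold changes of the 45 tested members by role for metformin without FK866 (left) and with FK866 (right), with bars for 95% intervals, colors for the adjusted p-value and dotted lines at a fold change of 1.5. The 4 cargo receptors lie right of 0 in both panels, while ATG2A and GLA lie left of it.

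Among the initiation genes, ULK2, which encodes a kinase related to ULK1 (chromosome 17, 19770829 to 19867936), had 2017, 2000 and 2341 normalized counts in the DMSO libraries, 3694, 3766 and 3392 in Met, 2271, 2809 and 2510 in FK and 3903, 3721 and 3326 in Met+FK. Every metformin-treated library lay above every library without metformin. ULK2 rose by 0.77 ± 0.095 (SE) on the log2 scale (adjusted p = 1.30e-05), a fold change of 1.71, and by 0.53 (adjusted p = 0.000405) where FK866 was present. ULK1 had 1335, 1233 and 1383 in DMSO, 1559, 1437 and 1770 in Met, 1207, 1133 and 1429 in FK and 1611, 1698 and 1812 in Met+FK. Its groups with and without metformin did not overlap either, but the differences were small. ULK1 rose by 0.27 ± 0.10 (adjusted p = 0.0385), a call lost without DMSO replicate 1 (adjusted p = 0.0730) or 2 (0.118) or Met replicate 1 (0.0741) or 3 (0.151), and by 0.45 with FK866 (adjusted p = 0.00246). With the GC and length trend of each library removed, the first value was 0.44. ATG13, a regulatory subunit of the ULK complex, had a log2 fold change of 0.055 with metformin alone (adjusted p = 0.615) and rose by 0.30 with FK866 present (adjusted p = 0.0109).

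In the nucleation group, WIPI1 (chromosome 17, 68420948 to 68457513) had 758, 735 and 706 normalized counts in DMSO, 1436, 1420 and 1471 in Met, 801, 912 and 815 in FK and 1624, 1714 and 1497 in Met+FK. The replicates within each group lay close together and the metformin-treated libraries held 1.97 times the DMSO level in the fit. The log2 fold change was 0.98 ± 0.082 (adjusted p = 3.17e-07), and 0.93 with FK866 present (adjusted p = 5.28e-07). ARSG, on the opposite strand, shares 28.3% of the exonic bases of WIPI1, and rose by 1.25 with metformin at a mean of 218.1 normalized counts against 1157 for WIPI1. The strand setting of the counting is not given in the sources used here, so reads of such pairs cannot be told apart. UVRAG (chromosome 11, 75815210 to 76144232) had 939, 836 and 917 in DMSO, 1506, 1331 and 1333 in Met, 966, 1060 and 926 in FK and 1562, 1658 and 1333 in Met+FK. It rose by 0.63 ± 0.097 (adjusted p = 9.34e-05) and by 0.62 with FK866, with no overlap between groups with and without metformin. ATG14 (chromosome 14, 55366392 to 55411858, one of the E-box windows above) had 821, 667 and 748 in DMSO, 1127, 970 and 902 in Met, 877, 941 and 894 in FK and 1354, 1217 and 1125 in Met+FK. It rose by 0.42 ± 0.11 (adjusted p = 0.00368) and by 0.44 with FK866. FBXO34, on the opposite strand, shares 22.2% of its exonic bases and had a log2 fold change of -0.089 with metformin (adjusted p = 0.401). ATG2A, a lipid transfer protein, went the other way and fell by 0.49 with metformin alone and by 0.38 with FK866, while BECN1, WIPI2 and ATG9A passed the test in neither comparison.

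The conjugation genes did not move as a group. With metformin alone ATG5 and ATG12, which are joined to each other, rose by 0.53 and 0.49, ATG16L1, their partner, fell by 0.23, and ATG3 (0.14) and ATG7 (-0.15) did not pass the test. With FK866 present, 0 of the 5 passed, and their log2 fold changes lay between -0.025 and 0.14. The rise of ATG5 and ATG12 was smaller once the GC and length trend was removed (0.30 and 0.20), and the call of ATG16L1 was kept in 3 of 6 fits that each left out 1 library.

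Of the ATG8 genes, MAP1LC3B (chromosome 16, 87383953 to 87404779), which encodes LC3B, the usual marker protein of autophagosomes, had the largest change of all members with metformin alone. Its normalized counts were 5551, 5605 and 5439 in DMSO, 12651, 11496 and 9946 in Met, 6082, 5790 and 5731 in FK and 13185, 11261 and 10943 in Met+FK. The lowest metformin-treated library was thus well above the highest library without metformin. MAP1LC3B rose by 1.03 ± 0.089 (adjusted p = 4.28e-07), a fold change of 2.04, and by 1.003 with FK866 (adjusted p = 6.04e-07). MAP1LC3B2, a near-identical copy, had 13.8 to 56.4 normalized counts, so few reads lay in the copy, though reads split between them cannot be assigned with certainty. GABARAPL1 (chromosome 12, 10212458 to 10223128) had 3201, 2963 and 3175 in DMSO, 4682, 4495 and 4265 in Met, 3181, 3292 and 3130 in FK and 5351, 4845 and 4434 in Met+FK. It rose by 0.53 ± 0.077 (adjusted p = 6.20e-05) and by 0.60 with FK866 (adjusted p = 1.98e-05), again without overlap. The other two genes of the family differed from these. GABARAP had 6181, 5967 and 5428 in DMSO, 6102, 5949 and 6120 in Met, 5428, 4455 and 4756 in FK and 6160, 5856 and 6407 in Met+FK, a log2 fold change of 0.050 with metformin alone (adjusted p = 0.624) and a rise of 0.34 with FK866 (adjusted p = 0.00340). GABARAPL2 fell by 0.20 with metformin alone, a call kept in 2 of 6 fits that each left out 1 library, and had -0.13 with FK866 (adjusted p = 0.146).

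The cargo receptors, which bind ubiquitin or cargo on one side and ATG8 proteins on the other, all rose with metformin alone. SQSTM1 (p62; chromosome 5, 179806398 to 179838078) had 71711, 56286 and 56402 normalized counts in DMSO, 111077, 97945 and 106235 in Met, 58969, 45019 and 49453 in FK and 116850, 104849 and 115357 in Met+FK. Even the lowest metformin-treated library lay above the highest library without metformin. SQSTM1 rose by 0.78 ± 0.11 (adjusted p = 2.81e-05) and by 1.14 with FK866 (adjusted p = 8.56e-07). Of its exonic bases 55.7% are shared with MRNIP on the opposite strand, which had a mean of 746.6 normalized counts against 82513. OPTN (chromosome 10, 13099449 to 13138308), a receptor used for mitochondria and bacteria, had 1737, 1939 and 1825 in DMSO, 3300, 3369 and 2941 in Met, 2075, 2413 and 1993 in FK and 3247, 3472 and 3207 in Met+FK. It rose by 0.80 ± 0.087 (adjusted p = 3.88e-06) and by 0.62 with FK866 (adjusted p = 4.77e-05).

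TAX1BP1 (chromosome 7, 27739331 to 27844564) had the widest spread of the receptors, with 2848, 4207 and 2864 in DMSO, 6596, 7002 and 4927 in Met, 4190, 6651 and 4363 in FK and 6367, 7042 and 6441 in Met+FK. Met lay above DMSO without overlap, but FK replicate 2 reached the level of the Met+FK libraries. TAX1BP1 rose by 0.91 ± 0.18 (adjusted p = 0.000690), and with FK866 the difference was 0.42 (adjusted p = 0.0740). NBR1, the receptor most like SQSTM1 in build, rose by 0.43 and by 0.35.

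**Figure D2:**
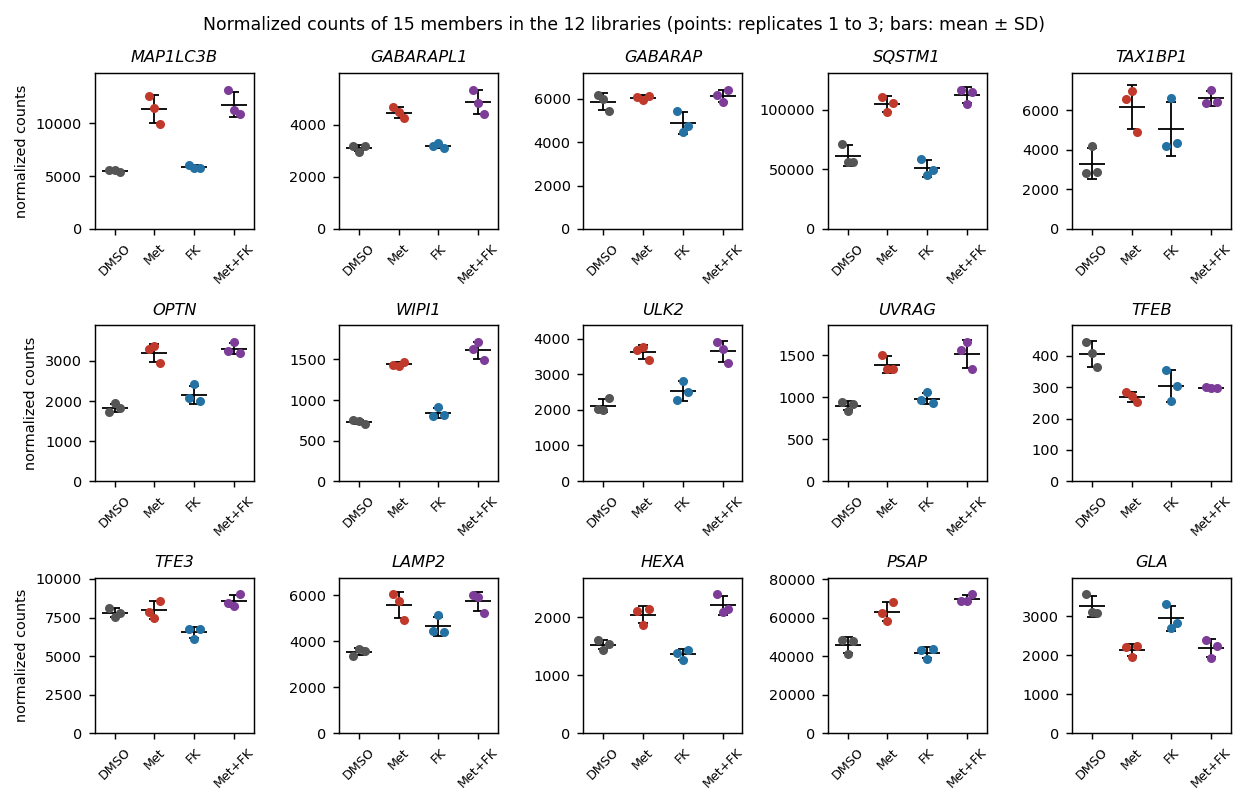
Normalized counts of 15 members, on axes from 0, in each of the 12 libraries, with points for replicates and bars for the mean ± SD of 3 libraries per group. MAP1LC3B, SQSTM1, WIPI1, ULK2 and PSAP sit higher in Met and Met+FK than in DMSO and FK, and GLA sits lower.

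Among the MiT/TFE factors, TFEB (chromosome 6, 41683978 to 41736259) had 444, 410 and 364 normalized counts in DMSO, 283, 271 and 253 in Met, 356, 255 and 303 in FK and 299.998, 299 and 298 in Met+FK. All 9 drug-treated libraries lay below the lowest DMSO library. TFEB fell by 0.59 ± 0.12 with metformin alone (adjusted p = 0.000976), by 0.40 once the GC and length trend was removed (GC content of its transcript 64.7%), and Met+FK differed from FK by -0.014 (adjusted p = 0.939). TFE3 had 8120, 7511 and 7816 in DMSO, 7850, 7461 and 8596 in Met, 6731, 6123 and 6770 in FK and 8429, 8267 and 9005 in Met+FK. The FK libraries were the lowest. Its log2 fold change was 0.026 with metformin alone (adjusted p = 0.783), and it rose by 0.39 with FK866 present (adjusted p = 0.000559). MITF, the least abundant of the 3, had 237, 278 and 223 in DMSO, 283, 291 and 242 in Met, 276, 351 and 265 in FK and 286, 325 and 293 in Met+FK, and did not pass the test in either comparison (0.15 and 0.028).

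Of the lysosomal membrane genes, LAMP2 (chromosome X, 120427827 to 120469365), which encodes a major glycoprotein of the lysosomal membrane, had 3371, 3668 and 3583 normalized counts in DMSO, 6047, 5766 and 4927 in Met, 4452, 5139 and 4390 in FK and 6011, 5946 and 5253 in Met+FK. The FK libraries lay between DMSO and the metformin-treated libraries, apart from FK replicate 2, which was above Met replicate 3. LAMP2 rose by 0.65 ± 0.091 with metformin alone (adjusted p = 3.97e-05) and by 0.30 with FK866 (adjusted p = 0.0151). The second call was lost without FK replicate 3 (0.26, adjusted p = 0.0654), Met+FK replicate 1 (0.27, adjusted p = 0.0648) or Met+FK replicate 2 (0.27, adjusted p = 0.0593). With the GC and length trend removed (GC content 36.0%) the values were 0.30 (adjusted p = 0.0210) and 0.46. LAMP1, its abundant relative, had 6522, 5127 and 5941 in DMSO, 6310, 5605 and 6474 in Met, 5619, 4998 and 5625 in FK and 6949, 6724 and 6813 in Met+FK. DMSO and Met overlapped, with a log2 fold change of 0.068 (adjusted p = 0.543), and Met+FK lay above FK by 0.34 (adjusted p = 0.00684). NPC1, the cholesterol exporter, rose by 0.40 and 0.51, while MCOLN1, a calcium channel whose window holds the E-box 2 times, fell by 0.34 with metformin alone, a call kept in 4 of 6 fits that each left out 1 library, and had -0.041 with FK866. The call for MCOLN1 was also lost with equal library totals (-0.22, adjusted p = 0.0867) and with the GC and length trend removed (-0.15, adjusted p = 0.0509).

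Among the 9 tested hydrolases and lumenal proteins, 5 rose and 1 fell with metformin alone (55.6% and 11.1%, beside 24.9% and 25.9% of all genes). With FK866 present 7 rose and 1 fell (77.8% and 11.1%, beside 20.5% and 21.7% of all genes). PSAP (chromosome 10, 71816298 to 71851325), the precursor of the saposins, had 48593, 41382 and 47792 normalized counts in DMSO, 62506, 58464 and 68279 in Met, 43289, 38720 and 43862 in FK and 68748, 68908 and 72237 in Met+FK. It rose by 0.46 ± 0.078 (adjusted p = 0.000227) and by 0.74 with FK866 (adjusted p = 3.23e-06), without overlap in either comparison. HEXA (chromosome 15, 72340919 to 72376476), a subunit of beta-hexosaminidase, had 1597, 1438 and 1536 in DMSO, 2111, 1871 and 2146 in Met, 1385, 1257 and 1431 in FK and 2391, 2083 and 2136 in Met+FK. It rose by 0.42 ± 0.086 (adjusted p = 0.000941) and by 0.70 (adjusted p = 1.47e-05), also without overlap. CTSD, which encodes the protease cathepsin D, had 7738, 6626 and 7149 in DMSO, 8601, 7750 and 9142 in Met, 6773, 5574 and 6576 in FK and 9177, 8738 and 10013 in Met+FK. CTSD rose by 0.24 ± 0.092 (adjusted p = 0.0367) and by 0.56 with FK866 (adjusted p = 0.000179). The first call was lost without DMSO replicate 2 (0.19, adjusted p = 0.128) or 3 (0.24, adjusted p = 0.0796) or Met replicate 1 (0.23, adjusted p = 0.0952) or 3 (0.19, adjusted p = 0.124), and the value was 0.44 with the GC and length trend removed.

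GLA (chromosome X, 101397803 to 101408012), the alpha-galactosidase of glycolipid breakdown, moved opposite to the hydrolases that rose, with 3563, 3111 and 3079 in DMSO, 2213, 1946 and 2235 in Met, 3317, 2699 and 2833 in FK and 2391, 1923 and 2233 in Met+FK. Each metformin-treated library was below each library without metformin. GLA fell by 0.61 ± 0.10 (adjusted p = 0.000203) and by 0.43 with FK866 (adjusted p = 0.00325). CTSB, a cysteine protease, had 9365, 8076 and 8691 in DMSO, 8743, 8008 and 9447 in Met, 7696, 6482 and 7547 in FK and 8810, 8430 and 9440 in Met+FK, with 0.0034 for metformin alone (adjusted p = 0.980) and a rise of 0.30 with FK866 (adjusted p = 0.0122). The latter was lost without Met+FK replicate 3 (0.26, adjusted p = 0.0550). CTSL rose by 0.34 and 0.23 and GRN by 0.23 and 0.49, NPC2 rose with FK866 present (0.43) and had 0.11 without it, and CTSA passed in neither comparison. The GRN call with metformin alone was kept in 1 of 6 fits that each left out 1 library, and the CTSL call with FK866 in 3 of 6.

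The V-ATPase subunits showed no common direction. ATP6V1C1, a subunit of the catalytic sector, had 1388, 1720 and 1249 in DMSO, 2228, 2033 and 1694 in Met, 1907, 2571 and 1903 in FK and 1903, 1773 and 1595 in Met+FK. DMSO and Met overlapped at DMSO replicate 2 and Met replicate 3. ATP6V1C1 rose by 0.45 ± 0.14 with metformin alone (adjusted p = 0.0138), lost without DMSO replicate 3 (0.35, adjusted p = 0.0730), without Met replicate 1 (0.37, adjusted p = 0.0719) and with the GC and length trend removed (0.19, adjusted p = 0.0528), and had -0.26 with FK866 (adjusted p = 0.144). ATP6V1A, the catalytic subunit, had 4433, 5086 and 4677 in DMSO, 4956, 4986 and 4499 in Met, 5486, 6174 and 5570 in FK and 4391, 4907 and 4538 in Met+FK. Its FK libraries were the highest, so that it fell by 0.32 from FK to Met+FK (adjusted p = 0.00463) with a difference of 0.025 between Met and DMSO (adjusted p = 0.807). ATP6V0D1, of the membrane sector, fell by 0.42 with metformin alone and by 0.22 with the GC and length trend removed (adjusted p = 0.0109), and ATP6V1B2, ATP6V1H and ATP6V0A1 passed in neither comparison.

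Summed over all members, the counts of member genes were 0.630 to 0.693% of all counted read pairs in DMSO, 0.925 to 0.997% in Met, 0.596 to 0.652% in FK and 0.977 to 1.03% in Met+FK. The ratio of mean normalized sums was 1.34 for Met over DMSO and 1.54 for Met+FK over FK. Much of it lay in 2 genes, since without SQSTM1 and PSAP the ratios were 1.16 and 1.23. The sums also weight genes by their length and level, unlike the medians above.

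Against DMSO, the combination Met+FK raised 22 members and lowered 5, which is 48.9% and 11.1% beside 26.1% and 26.1% of all genes, with a median of 0.28 over the members and 0.014 over all genes. At the DEG thresholds 11 rose and 0 fell, 24.4% and 0% beside 13.7% and 11.3% of all genes. This comparison shares the DMSO libraries with Met against DMSO and the Met+FK libraries with the comparison against FK, so it is no separate evidence. The Met+FK libraries lay without overlap above DMSO for 25 members and below it for 9 (30.5% and 30.4% of all genes). The 11 included ATG14, whose fold change was 1.65, GABARAPL1 (1.56) and PSAP (1.53) beside the 8 that were DEGs with metformin alone, namely WIPI1 (2.19), MAP1LC3B (2.13), TAX1BP1 (2.03), SQSTM1 (1.84), OPTN (1.80), ULK2 (1.72), UVRAG (1.69) and LAMP2 (1.62). LAMP2 rose by 0.42 on the log2 scale once the GC and length trend was removed (adjusted p = 0.00281), which is below the fold change of the DEG thresholds. LAMP1 rose by 0.23 (adjusted p = 0.0439), but 5 of the 6 fits that left out 1 library ended this call, with adjusted p between 0.0738 (without DMSO replicate 3) and 0.209 (without DMSO replicate 2), as did DESeq2 (adjusted p = 0.0536).

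With FK866 alone 4 members rose and 5 fell against DMSO, which is 8.89% and 11.1% beside 11.3% and 9.84% of all genes. With the replicate block 15 rose and 15 fell (33.3% each), beside 23.3% and 21.3% of all genes. The median was -0.10 over the members and -0.016 over all genes. The FK libraries lay without overlap above DMSO for 11 members and below it for 10 (17.2% and 21.6% of all genes). TAX1BP1 rose by 0.61 ± 0.18 (adjusted p = 0.0337) and was the only member past the DEG thresholds, 2.22% of the members beside 2.73% of all genes, with 0% beside 0.754% among those that fell. ATP6V1C1 rose by 0.55 (adjusted p = 0.0244), LAMP2 by 0.39 (adjusted p = 0.0198) and ATP6V1A by 0.28 (adjusted p = 0.0301). TFEB fell by 0.42 (adjusted p = 0.0317), ATG7, the activating enzyme of the conjugation systems, by 0.30 (adjusted p = 0.0264), CTSB by 0.27 (adjusted p = 0.0432), GABARAP by 0.27 (adjusted p = 0.0351) and TFE3 by 0.26 (adjusted p = 0.0304). ATG7 had 2539, 2515 and 2553 normalized counts in DMSO, 2196, 2218 and 2435 in Met, 2135, 1914 and 2126 in FK and 2160, 2097 and 2443 in Met+FK, and its FK and DMSO libraries did not overlap. VGLL4, on the opposite strand, shares 29.9% of the exonic bases of ATG7 and had -0.0072 with FK866 (adjusted p = 0.945).

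These calls with FK866 alone depended on the libraries and on the fit. Without FK replicate 1, 7 members rose and 9 fell (beside 16.9% and 15.2% of all genes). Without DMSO replicate 1, DMSO replicate 3 or FK replicate 2, 0 members rose and 0 fell. In these 3 fits 0.696%, 1.7% and 1.14% of all genes rose and 0.169%, 0.774% and 0.397% fell. Those 3 fits by limma-trend had 13, 19 and 12 members at an unadjusted p-value under 0.05, counts that were not taken over all genes. A limma-trend fit on the 6 libraries of the comparison gave 0 and 0, beside 0.722% and 0.267% of all genes. It had 17 members at an unadjusted p-value under 0.05, also not counted over all genes. On all libraries edgeR and TMM scaling each gave 5 and 4 (1982 and 1130 of all genes under TMM scaling, against 1738 and 1513 as deposited). DESeq2 on the recovered read pairs gave 10 and 6 (22.2% and 13.3%, beside 14.8% and 12.2% of all genes). The replicate numbers of DMSO and FK went together in the data, and once the replicate number entered the fit as a block 15 members rose and 15 fell (33.3% each), beside 3586 and 3268 of all genes (23.3% and 21.3%).

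The direction of the FK866 differences went with the GC content of the transcript, as did, by medians, that of the metformin differences above. The 4 members that rose had GC contents of 36.0 to 40.5% and the 5 that fell 48.8 to 64.7%, and the median was 44.7% for the 20 members with a positive and 54.1% for the 25 with a negative log2 fold change. The median of all genes tested was 48.5%. Once the GC and length trend of each library was removed, 3 members rose (TAX1BP1, WIPI1 and CTSL) and 2 fell (ATG7 and GABARAPL2), beside 645 and 527 of the 15324 genes in that fit (4.21% and 3.44%). With the replicate block as well 6 rose and 5 fell, beside 1213 and 1227 of all genes (7.92% and 8.01%). LAMP2 turned from 0.39 to -0.040 (adjusted p = 0.844), ATP6V1A went to 0.0022 (adjusted p = 0.983), TFE3 to -0.051 (adjusted p = 0.431) and TFEB to -0.18 (adjusted p = 0.317). ATP6V1C1 went to 0.23 (adjusted p = 0.0830), CTSB to -0.18 (adjusted p = 0.0547) and GABARAP to -0.17 (adjusted p = 0.0648). TAX1BP1 stood at 0.28 and ATG7 at -0.27. The part of GC content in the deposited differences was not tested.

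**Figure D3:**
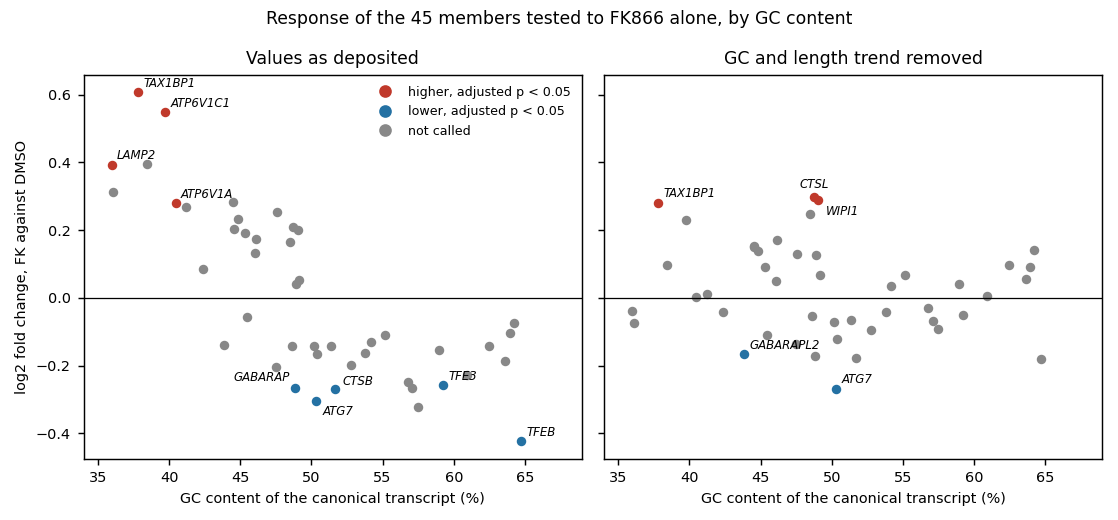
Log2 fold change of FK against DMSO for the 45 tested members against the GC content of their canonical transcript, in the deposited values (left) and with each library's GC and length trend removed (right), with colors for the adjusted p-value. On the left the members that rose lie at 36.0 to 40.5% GC and those that fell at 48.8 to 64.7%, and on the right TAX1BP1 and ATG7 are again among those past the test.

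On top of metformin, FK866 moved no member past the test. In Met+FK against Met 0 rose and 0 fell by limma-trend, edgeR and DESeq2, beside 0.0911% and 0.0065% of all genes by limma-trend. By limma-trend 2 members had an unadjusted p-value under 0.05, a count that was not taken over all genes. The log2 fold changes lay between -0.17 (ATP6V1C1) and 0.30 (ATG14), 37 of 45 were positive, and the median was 0.074 beside 0.0063 over all genes. With equal library totals 29 were positive, with a median of 0.035 beside -0.033 over all genes. Leaving out 1 library gave 32 (without Met replicate 2) to 37 positive. Positive signs were not counted over all genes. The widest 95% intervals reached from -0.47 to 0.53, so all 45 lay within a fold change of 1.5 in either direction. The Met+FK libraries lay without overlap above Met for 5 members and below it for 1 (7.88% and 5.56% of all genes). ATG14 had the smallest adjusted p-value (0.530), with Met+FK at 1354, 1217 and 1125 against Met at 1127, 970 and 902, 2 groups that overlap at the lowest Met+FK and the highest Met library. With the GC and length trend removed and the replicate number as a block, ATG14 rose by 0.32 (adjusted p = 0.0327), the only member to pass in that fit. That is 2.22% of the members that rose and 0% that fell, beside 1.36% and 0.881% of all genes.

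**Figure D4:**
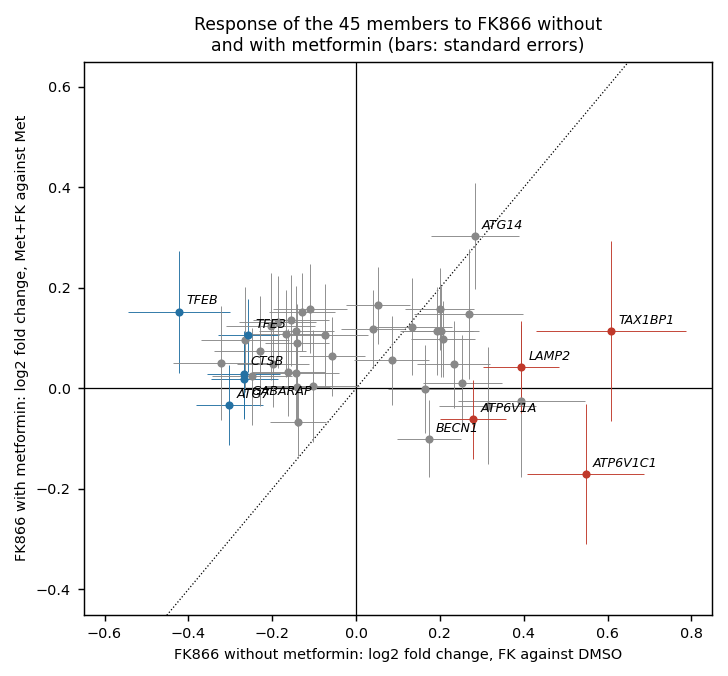
Log2 fold change with FK866 in the presence of metformin (Met+FK against Met, vertical) against that in its absence (FK against DMSO, horizontal) for the 45 tested members, with bars for standard errors, a dotted line of equality and colors for the call against DMSO. Values on the vertical axis lie between -0.17 and 0.30, and those on the horizontal axis between -0.42 and 0.61.

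The difference between the effects of FK866 with and without metformin, the interaction, passed the test for 0 members in either direction by limma-trend. Of all genes, 0.0065% passed with a positive and 0.052% with a negative difference. By edgeR the counts of members were also 0 and 0, and by DESeq2 1 and 1 (TFE3 and ATP6V1C1), 2.22% each beside 2.29% and 3.38% of all genes. By limma-trend 17 members had an unadjusted p-value under 0.05, a count that was not taken over all genes. The smallest adjusted p-value was 0.110, for TFEB (0.58 ± 0.17), and ATP6V1C1 (-0.72 ± 0.20) and TFE3 (0.36 ± 0.10) also had 0.110. With the replicate number as a block 17 members had a positive and 7 a negative interaction (37.8% and 15.6%), beside 2380 and 2534 of all genes (15.5% and 16.5%). The counts were 1 and 0, the member being NPC2, with the GC and length trend removed as well, beside 273 and 212 of all genes. Without FK replicate 1 the counts were 4 and 1, beside 980 and 865.

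Genes of the same pathways that are not members were taken from 2 wider lists. Of 37 tested genes of other autophagy proteins, 13 rose (35.1%) and 3 fell (8.11%) with metformin alone, with a median of 0.14. The largest rises were those of the receptors of ER-phagy CCPG1 (1.51) and RETREG1 (1.16) and of the lipid scramblase TMEM41B (1.03), and the largest falls those of the ATG8 proteases ATG4D (-0.34) and ATG4B (-0.33) and the mitophagy receptor FUNDC1 (-0.25). Of 61 tested genes of other lysosomal proteins, 20 rose (32.8%) and 13 fell (21.3%), with a median of 0.059. ATP6V0D2, a V-ATPase subunit (2.76), and RRAGD and RRAGC, GTPases that recruit mTORC1 (1.28 and 0.86), rose most, and the proteases CTSV (-1.08) and CTSC (-0.74) were among those that fell most. Of all genes tested, 24.9% rose and 25.9% fell with metformin alone. With FK866 alone 8 rose and 3 fell among the autophagy genes (21.6% and 8.11%) and 8 and 4 among the lysosome genes (13.1% and 6.56%). The shares of all genes with FK866 alone were 11.3% and 9.84%. In Met+FK against Met 0 of either list passed, beside 0.0911% and 0.0065% of all genes.

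**Figure D5:**
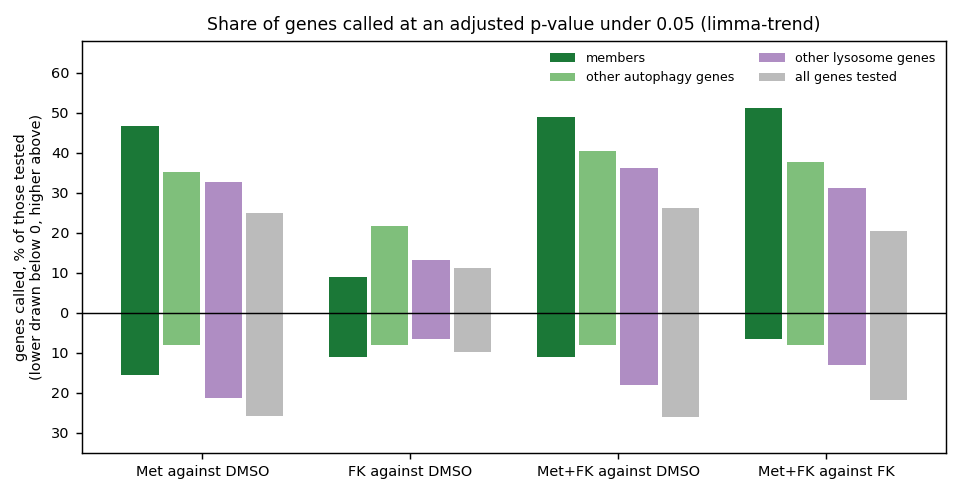
Percentage of genes that rose (above 0) or fell (below 0) at an adjusted p-value under 0.05 in 4 comparisons, for the members, the 2 wider lists and all genes tested. The share of members that rose with metformin was 46.7% beside 24.9% of all genes, and with FK866 alone 8.89% beside 11.3%.

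The 7 members whose promoter window holds the E-box were spread over the classes of response to metformin alone. Of the members with a matched promoter, 2 of the 16 that rose had it (ATG14 and CTSD), as did 2 of the 7 that fell (MCOLN1 and ATP6V0D1) and 3 of the 13 that did not pass (ATG3, CTSA and LAMP1). MAP1LC3B, which rose most, has no match in the window shown above, and LAMP1, with 6 matches in its window, had a log2 fold change of 0.068.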

How the data were processed

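RNA of KP4 cells, 3 libraries for each of 4 treatments, was measured by paired-end sequencing after depletion of ribosomal RNA. The authors trimmed reads with cutadapt, aligned them to hg38 (GRCh38) with STAR, obtained gene-level read pair counts from featureCounts and normalized them with DESeq2, whose size factors were 0.867 to 1.21. The deposited values are thus a signal, gene counts per size factor. Annotation and strand setting are not given in the sources used here, so values of overlapping or antisense genes and of near-identical copies are uncertain. In each library 100% of the values were whole multiples of 1 read pair within 0.01, which gave back 30667735 to 41052203 read pairs. Same-group libraries differed by more than counting noise (chi-square divided by its degrees of freedom 5.69 to 51.4), so each counted as 1 replicate.

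Log2(normalized count + 1) was fitted with limma-trend (limma 3.58.1, R 4.3.3) with 1 mean per treatment over all 12 libraries, for 15376 genes with a mean of at least 10, and p-values were adjusted by the Benjamini-Hochberg method over all of them. Fold changes are on this scale and understate those of low genes. Log2 fold changes are given ± SE of the fit. The members and lists were chosen with earlier results of these data known. Of the members, those past the DEG thresholds in any comparison, 9 set genes of the pathway and those called with FK866 alone were named with all values. If there were over 24 past the thresholds, the 24 with the largest change under metformin were to be kept. Of the wider lists, the 3 largest and 3 smallest changes were named among those called, except 1 that is not reported here. The alternatives were pseudocounts of 0.1 and 10, no filter, at least 10 in every library, equal library totals, TMM scaling and edgeR's quasi-likelihood test (edgeR 4.0.16), DESeq2 (1.42.0), the 6 libraries of a comparison, the replicate number as a block, removal of a loess trend (span 0.3) on GC content and length of the canonical transcript (known for 99.7% of genes), and each library left out. On the recovered read pairs edgeR called 4134 genes higher and 3669 lower for Met against DMSO. Within groups, how libraries deviated from their mean correlated across genes between equal replicate numbers at 0.25, 0.42 and 0.22 for DMSO and FK and at 0.17, 0.20 and 0.23 for Met and Met+FK, so these numbers were taken to pair the libraries, which rests on the values and not on the labels. The block itself held 1 term per replicate number over all treatments, and so also pairs the libraries of the other comparisons. Promoters are from RefSeq and exon overlaps from GENCODE 44, in which 83.6% of 36366 shared genes have the start and end of the deposited table.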

Additional observations from a re-analysis of the deposited data

Results flagged for a closer look

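BECN1 and TFEB were found by searching all tested members for libraries that moved opposite ways without overlap. How many of all genes show such a pattern was not counted. BECN1, which encodes the core subunit of the lipid kinase complex, had metformin libraries that all lay above the DMSO libraries without FK866 and all below the FK libraries with it. Taken singly, these hold for 27.5% and 26.0% of all genes. The values were 1731, 1625 and 1670 normalized counts in DMSO, 2005, 1814 and 1771 in Met, 1859, 1962 and 1845 in FK and 1836, 1745 and 1632 in Met+FK. The difference between the 2 effects of metformin was -0.27 on the log2 scale (adjusted p = 0.124 by limma-trend), which did not pass the test, and under the replicate block the adjusted p-value was 0.0301. With the GC and length trend removed as well it was 0.0535.

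For TFEB the FK libraries all lay below the DMSO libraries, and the Met+FK libraries all lay above the Met libraries. Taken singly, these hold for 21.6% and 7.88% of all genes. The difference between the 2 effects of FK866 was 0.58 (adjusted p = 0.110), which did not pass either, with 0.0124 under the block. With the GC and length trend removed as well the difference was 0.27 (adjusted p = 0.167).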

How the results depend on the processing

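Counts of members that rose and fell stayed within 1.5 times of those reported for metformin alone and for Met+FK against FK or DMSO under most alternatives. The DEG thresholds left 8 and 2 members for Met against DMSO, 1 and 0 for FK against DMSO, 11 and 0 for Met+FK against DMSO and 8 and 0 for Met+FK against FK. The shares of all genes at these thresholds are given above. Libraries scaled to the same total moved the median of all genes for Met against DMSO from 0.012 to 0.13 and left 4 members that fell (8.89%, beside 19.0% of all genes). Leaving out 1 library gave 4 (without DMSO replicate 1 or Met replicate 2) to 7 that fell with metformin alone. That is 8.89 to 15.6%, beside 21.7 to 26.5% of all genes.

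The replicate block gave 15 that rose and 15 that fell with FK866 alone (3586 and 3268 of all genes), 8 that fell for Met+FK against DMSO (4596 of all genes), and interactions of 17 positive and 7 negative (2380 and 2534). It changed no other count by over 1.5 times. With GC and length correction and the replicate block, 8 fell for Met+FK against DMSO (4979 of all genes) and 5 for Met+FK against FK (4629). In that fit 1 rose for Met+FK against Met (209 of all genes) and 1 interaction was positive (273). In DMSO and Met, FK and Met+FK, and DMSO and Met+FK some same-numbered libraries correlated at under 0.1 (0.013, 0.046, 0.051 and 0.019), so these were read as sharing only a number. Their remaining values were 0.33 and 0.25 for DMSO and Met, 0.24 and 0.14 for FK and Met+FK and 0.16 for DMSO and Met+FK. Some of these exceeded those of Met and Met+FK, so this reading of the pairs is uncertain. The replicate block did not follow this reading. It gave same-numbered libraries of all treatments a shared term, so its counts in every comparison rest on pairing all of them.

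With FK866 alone, DESeq2 gave 10 that rose (beside 14.8% of all genes) and the 6 libraries 0 and 0 (0.722% and 0.267%). No filter gave 1 that fell (2.73% of all genes), and GC and length correction 2 that fell (3.44%). Leaving out 1 library gave 0 to 7 that rose (0.696 to 16.9% of all genes) and 0 to 9 that fell (0.169 to 15.2%). It gave 0 to 4 positive and 0 to 1 negative interactions (0 to 6.37% and 0 to 5.63% of all genes). DESeq2 gave 1 positive and 1 negative interaction (2.29% and 3.38% of all genes). LAMP2 with FK866 alone turned to -0.040 under GC and length correction, with and without the replicate block. The causes were not tested. The named members' log2 fold changes were tallied over the alternatives, among which the DEG thresholds applied to the main fit were counted. In this tally 1064 kept direction and side of the threshold, 112 kept the direction without passing it and 2 reversed.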
